A study of Rattus norvegicus with 10 samples.

Results

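The redox and glutathione defence genes described here are 10 genes: Gclc, Gclm, Hmox1, Txnrd1, Sod1, Sod2, Cat, Gpx1, Gpx3 and Nfe2l2. They were found by their symbol in the annotation of the array, which gave 12 of its 15866 probe sets that are not controls, with 2 probe sets each for Gclc and Txnrd1 and 1 for each other gene; the array names 10411 genes in all. The animals were female Sprague-Dawley rats on 1 of 3 purified diets, CAS, SPI or GEN, whose mammary gland RNA was taken at postnatal day 50. The question was whether SPI or genistein changes gene expression in the gland. The CAS diet has 3 arrays, numbered 1, 2 and 3; SPI has 4, numbered 2 to 5; and GEN has 3, numbered 1, 3 and 5. Each array carries RNA of 2 pooled animals. The labels do not spell out the diets. From the title GEN is genistein, a soy isoflavone, and from knowledge of the study CAS is casein, taken as the reference, and SPI soy protein isolate. No genotype or agent beyond the diets is given, and the sources used here give no dose of genistein. The labels describe 3 labelled targets per RNA pool without tying arrays to pools, so some arrays of a diet may be technical replicates, and p-values then measure that spread.

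Cells lose electrons to oxygen all the time, and the superoxide that forms is first turned into hydrogen peroxide by superoxide dismutases and then into water by catalase and by peroxidases that spend glutathione or thioredoxin. Glutathione is built from glutamate, cysteine and glycine, and the first step, made by the catalytic subunit Gclc and the modifier subunit Gclm, sets its rate. Nrf2, the product of Nfe2l2, is held in the cytoplasm by Keap1 and, when electrophiles or oxidants modify Keap1, enters the nucleus and binds antioxidant response elements near genes such as Gclc, Gclm, Hmox1 and Txnrd1. Plant phenols, soy isoflavones among them, are widely studied as agents that act on this pathway. Mammary gland at this age is a duct system embedded in a fat pad, so its RNA comes from epithelium, adipocytes, fibroblasts, vessels and leukocytes together. In such bulk tissue, fewer cells of a type and less RNA per cell cannot be told apart.

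Start-site sequences were set beside the genes because Nrf2 recognises a short DNA element. RefSeq windows from 250 bases before to 50 bases after a start (build GRCr8) were matched for 9 of the 10 genes, in 10 windows, since Txnrd1 has 2; Hmox1 was not matched. The element core TGACNNNGC, searched on both strands, was found in 4 windows, those of Gclm, Txnrd1, Sod2 and Nfe2l2, and in 12.1% of all 33469 windows of that length. The AP-1 element TGANTCA, which the core can overlap, was found in 0 of the 10 windows and in 7.33% of all windows. The matches are printed 5′ to 3′ on the strand that reads TGAC, with the core in capitals and up to 10 bases on each side, so that the 3 free positions can be compared:
Gclm: tggaagacaaTGACTAAGCagaaaccgca
Txnrd1: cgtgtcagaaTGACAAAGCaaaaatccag
Sod2: agctaggcgcTGACCCTGCcggcagcgcc
Nfe2l2: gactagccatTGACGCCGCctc
Gclm (chr2:213031953-213031981, minus strand) and Txnrd1 (chr7:22755964-22755992, plus strand) carry an A after the core. The core followed by A stands in 3.0% of all windows. Sod2 (chr1:50050185-50050213, plus strand) and Nfe2l2 (chr3:81028950-81028971, minus strand) carry a C there. The match begins 172 bases before the start in Gclm, 78 in Txnrd1 and 35 in Sod2, and 38 bases after it in Nfe2l2. A match of letters is a description and not a measured site. Of the 2 Txnrd1 windows, 1 holds the match and the other held 0 matches of the core. The match is shown in the promoter of the window that holds it, because Txnrd1 had the largest diet difference of the 10 genes, at 1 of its 2 probe sets. The 250 bases before the start (GRCr8 chr7:22755905-22756154, minus strand) are given on the gene's strand, where the core reads in reverse complement and is in capitals.
Txnrd1 promoter: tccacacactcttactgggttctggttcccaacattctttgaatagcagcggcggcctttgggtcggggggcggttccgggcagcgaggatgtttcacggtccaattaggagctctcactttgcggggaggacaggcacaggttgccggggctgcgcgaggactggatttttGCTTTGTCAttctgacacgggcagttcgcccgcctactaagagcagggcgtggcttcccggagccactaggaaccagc

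Signals are MAS5 values on a linear scale, made by the authors so that every array has about the same trimmed mean, and differences are on the log2 scale. Medians of the arrays ran from 222.8 to 256.7. As a common index of RNA integrity, the 3'/5' ratio of the beta-actin probe sets ran from 2.83 (GEN 5) to 7.77 (SPI 4), and SPI 4 was also highest in the GAPDH ratio, at 2.91 against 1.18 to 1.89 on the other arrays. The source label reads epithelial cells and the protocol names the gland, while a line of the design text speaks of colon tissue. Of the marker lists, 14 of 15 luminal genes on the array lay above the signal filter, and so did 11 of 11 fibroblast, 8 of 8 endothelial and 11 of 13 adipocyte genes. The filter kept 9520 of all 15866 probe sets, and these lists do not by themselves tell gland from other tissue. Of the milk genes 6 of 7 lay above it, with mean log2 signals of 14.14 for Csn1s1 and 13.32 for Lalba, so the samples are described as gland.

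None of the 10 genes differed between diets past the threshold. Of the 12 probe sets, 11 lay above the filter on dim signals, which removed the lowest 40% of probe sets, and the 12th, the dimmer one of Gclc, was fitted with the filter off. In limma at an adjusted p under 0.05, 0 of 11 were called in each of the 3 comparisons, where the same test called 0% of all 9520 probe sets in each. The smallest adjusted p of the 11 was 0.987 between SPI and CAS, 0.825 between GEN and CAS and 0.579 between SPI and GEN. At an unadjusted p under 0.05 there were 0 between SPI and CAS, 1 between GEN and CAS and 1 between SPI and GEN, where all tested probe sets gave 4.82%, 5.89% and 7.95%. In limma's test of any diet difference 1 of 11 had an unadjusted p under 0.05, where all tested gave 6.4%. The diets did not overlap for 1 of 11 between SPI and CAS (Cat), 1 between GEN and CAS (a probe set of Txnrd1) and 0 between SPI and GEN, where the shares of all tested probe sets were 4.6%, 11.1% and 8.5%. In the direction seen, lower on SPI for Cat and higher on GEN for Txnrd1, the shares of all tested were 2.83% and 5.7%. With 1 probe set at most in each count, nothing is read from them about the genes.

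The median sizes were small. Over the 11 tested probe sets the median log2 difference was 0.04 for SPI against CAS, with 6 higher and 5 lower. It was 0.14 for GEN against CAS (8 higher, 3 lower) and -0.05 for SPI against GEN (4 higher, 7 lower). Over all 9520 the medians were -0.01, -0.01 and -0.0043. The comparisons share arrays, so their values are not independent of each other. The precision allowed differences of some size to go unseen: the half-width of the 95% interval ran from 0.27 (Cat) to 0.69 (the dimmer Txnrd1) for SPI against CAS and from 0.29 to 0.74 for GEN against CAS.

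**Figure D1:**
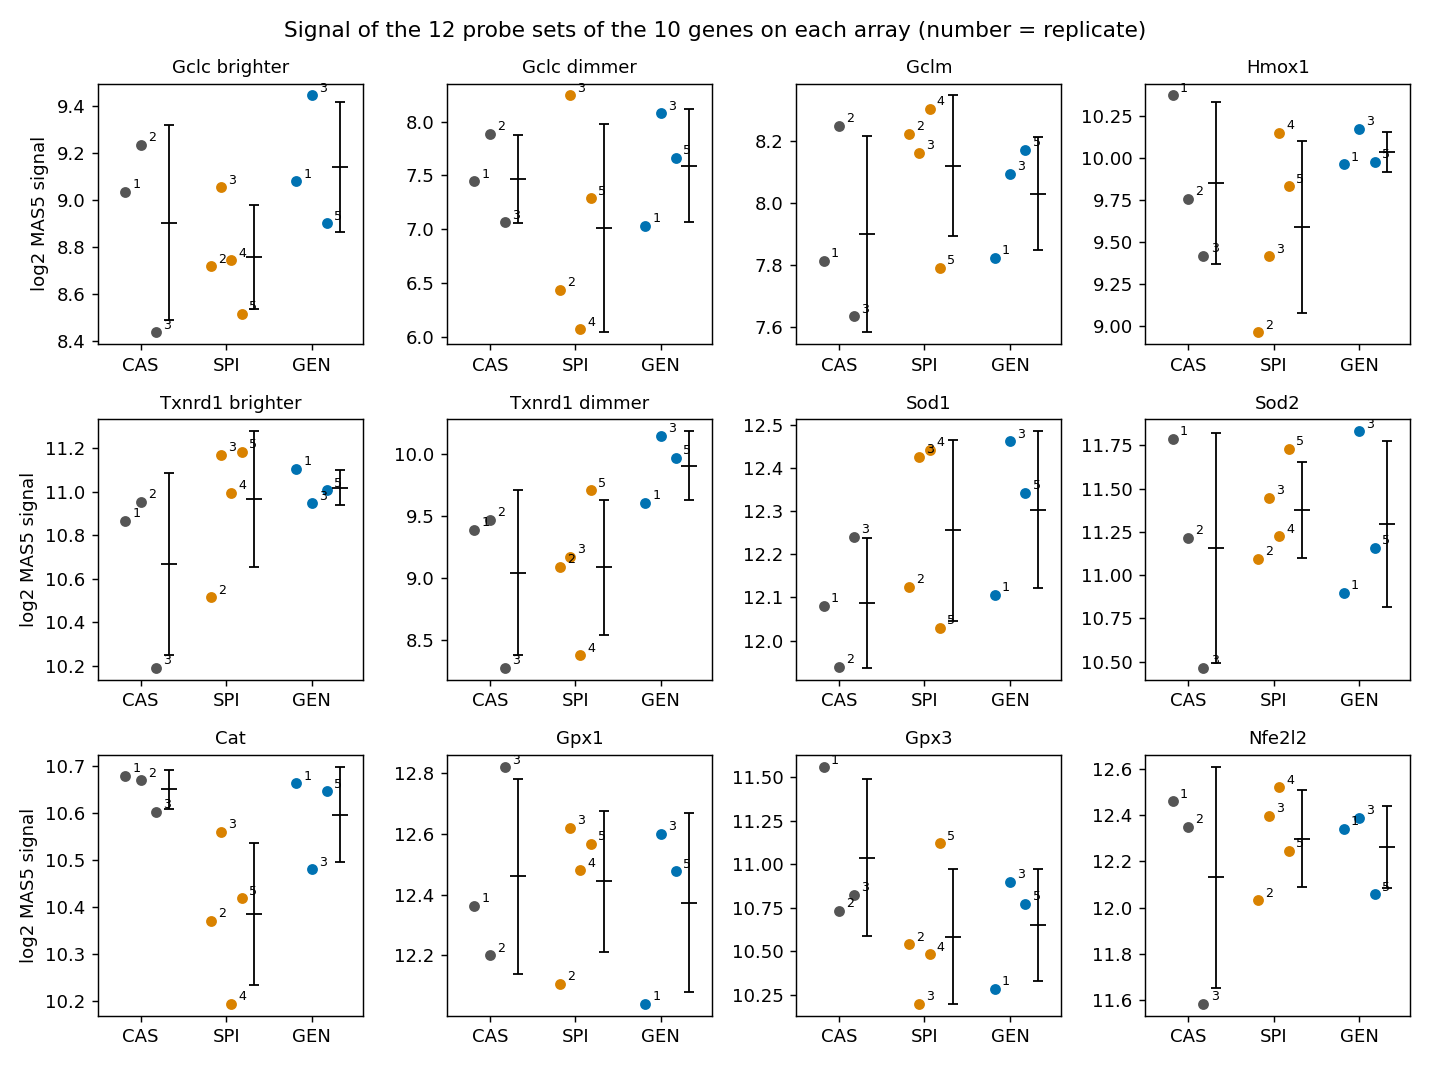
Log2 MAS5 signal (vertical axis) of each of the 12 probe sets on each of the 10 arrays, by diet; points are arrays with their replicate number, and the bar beside each group is the mean with its SD (n = 3, 4 and 3). CAS 3 is the lowest of the 10 points for both Txnrd1 probe sets, Sod2 and Nfe2l2, and the Cat points of SPI lie below those of CAS.

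Nfe2l2, which codes for the transcription factor Nrf2, had signals of 5629.3, 5215.8 and 3070.7 on CAS 1, 2 and 3. They were 4186.3, 5388.4, 5874.5 and 4860.0 on SPI 2, 3, 4 and 5, and 5183.2, 5364.5 and 4264.0 on GEN 1, 3 and 5. CAS 3 was the lowest of the 10 arrays, the other 9 lay between 4186.3 and 5874.5, and the diets overlapped. On the log2 scale SPI stood 0.17 ± 0.20 (SE) from CAS, GEN 0.13 ± 0.21 from CAS, and SPI 0.04 ± 0.20 from GEN. Without CAS 3 the first became -0.11 and the second -0.14. Nrf2 is regulated mainly through the stability of its protein, which these arrays do not measure.

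Gclc, the catalytic subunit of glutamate-cysteine ligase, had 2 probe sets. The brighter (1372523_at) gave 524.8, 603.1 and 346.3 on CAS 1, 2 and 3, then 420.8, 531.8, 428.6 and 365.8 on SPI 2, 3, 4 and 5, and 541.1, 697.8 and 478.0 on GEN 1, 3 and 5. CAS 3 was again the lowest array and GEN 3 the highest, and the diets overlapped. SPI stood -0.38 ± 0.21 (SE) from GEN (limma adjusted p = 0.653, 0.578 to 0.998 over the alternatives), -0.15 ± 0.21 from CAS, and GEN 0.24 ± 0.22 from CAS. Without GEN 3 the first of these was -0.23. The dimmer probe set (1370688_at) ran from 67.3 on SPI 4 to 302.9 on SPI 3, a spread of 4.50-fold within 1 diet, and its geometric mean of 160 lay below the lowest tested, 162. Its differences were -0.45 ± 0.47, 0.13 ± 0.50 and -0.58 ± 0.47, for SPI against CAS, GEN against CAS and SPI against GEN. Both probe sets had lower means on SPI than on GEN, and both 95% intervals included 0.

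Gclm, the modifier subunit that lowers the inhibition of the enzyme by glutathione, had 225.0, 304.4 and 198.8 on CAS 1, 2 and 3. It had 298.8, 286.5, 316.2 and 221.6 on SPI 2 to 5, and 226.5, 273.5 and 288.3 on GEN 1, 3 and 5. The lowest array was CAS 3 and the highest SPI 4, within a range of 1.59-fold. On the log2 scale SPI stood 0.22 ± 0.20 (SE) from CAS, GEN 0.13 ± 0.21 from CAS, and SPI 0.09 ± 0.20 from GEN. Gclc and Gclm, which form 1 enzyme, therefore stood on opposite sides of CAS on the SPI diet, and both 95% intervals included 0.

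Hmox1 codes for heme oxygenase, which breaks down heme and is abundant in macrophages that clear red cells. Its signals were 1325.2, 866.2 and 684.1 on CAS 1, 2 and 3, 499.1, 682.0, 1135.2 and 910.6 on SPI 2 to 5, and 997.2, 1155.2 and 1006.9 on GEN 1, 3 and 5. The GEN arrays lay close together, with an SD of 88.6, where CAS had 330 and SPI 276, CAS reached above and below GEN, and 3 of the 4 SPI arrays lay below all GEN arrays. On the log2 scale SPI stood -0.26 ± 0.27 (SE) from CAS, GEN 0.19 ± 0.29 from CAS, and SPI -0.45 ± 0.27 from GEN (limma adjusted p = 0.674, 0.502 to 0.998 over the alternatives). The last was -0.24 without SPI 2, and -0.63 without SPI 4, the array of high actin ratio. The macrophage markers were lower on SPI than on CAS in 13 of 13 tested genes, 5 of them at an unadjusted p under 0.05 and 0 after adjustment, and on GEN in 11 of 13. At that unadjusted p in limma, 3.29% of all tested probe sets were lower on SPI than on CAS. The summed signal of the 15 macrophage markers on the array ran from 11225 to 29032 on CAS, 8494 to 16855 on SPI and 9984 to 18922 on GEN. Fcgr2b and Itgam of the list were below the filter. Across the 10 arrays Hmox1 and the macrophage mean had Pearson's r = 0.140 (permutation p = 0.695, adjusted 0.928 over the 120 relations described with Gpx3). The Spearman correlation was 0.212 (permutation p = 0.559, adjusted 0.932). Within diets r was 0.016, and it was 0.216 without CAS 1 and CAS 3. Of the marker lists, Hmox1 had its largest r with the skeletal muscle mean, at 0.632 (permutation p = 0.0656, adjusted 0.636). The Spearman correlation there was 0.733 (permutation p = 0.0211, adjusted 0.565), and r was 0.690 without CAS 1 and SPI 3. That muscle mean rests on 6 of the 13 muscle genes on the array, the others lying below the filter. It was 10.08 on CAS 1 and 7.80 to 8.35 on the other arrays.

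Txnrd1, the cytosolic thioredoxin reductase that keeps thioredoxin reduced, had the largest diet difference of the 10 genes, at 1 of its 2 probe sets. The differences of GEN from the other diets were smaller at the other probe set. The dimmer (1386958_at) gave 668.3, 707.9 and 309.3 on CAS 1, 2 and 3, then 544.4, 574.9, 332.3 and 834.2 on SPI 2 to 5, and 776.9, 1129.7 and 1000.4 on GEN 1, 3 and 5. All 3 GEN arrays lay above all 3 CAS arrays, and above 3 of the 4 SPI arrays, SPI 5 being the exception. GEN stood 0.86 ± 0.34 (SE) above CAS, 1.82-fold, with an unadjusted p of 0.0253 in limma, adjusted 0.825 (alternatives 0.614 to 0.994). SPI stood -0.82 ± 0.32 from GEN, with an unadjusted p of 0.0234 in limma, adjusted 0.579 (alternatives 0.335 to 0.998), and 0.04 ± 0.32 from CAS. Without CAS 3 the first was 0.48, and without SPI 4 the second was -0.58.

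The brighter Txnrd1 probe set (1398791_at) gave smaller differences between GEN and the other diets, in the same directions. Its signals were 1865.9, 1981.6 and 1167.1 on CAS 1, 2 and 3, 1461.5, 2302.9, 2039.2 and 2325.7 on SPI 2 to 5, and 2202.0, 1973.5 and 2057.3 on GEN 1, 3 and 5. CAS 3 and SPI 2 were low and the other 8 arrays lay between 1865.9 and 2325.7. GEN stood 0.35 ± 0.22 (SE) from CAS, which was 0.11 without CAS 3, and SPI stood 0.30 ± 0.20 from CAS and -0.05 ± 0.20 from GEN. The sign of this last value turned to 0.0069 when arrays were centred on their median. Over the 10 arrays the 2 probe sets had Pearson's r = 0.569 (permutation p = 0.0747) and a Spearman correlation of 0.442 (permutation p = 0.205). Without CAS 3 and SPI 2 r was -0.024. Whether the diet differences of the 2 probe sets differ was not tested.

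The ratio of the dimmer to the brighter Txnrd1 signal ran from 0.163 on SPI 4 to 0.572 on GEN 3. It was 0.265 to 0.358 on CAS, 0.163 to 0.372 on SPI and 0.353 to 0.572 on GEN. SPI 4, with the lowest ratio, had the highest beta-actin 3'/5' ratio (7.77), and GEN 5, with the lowest actin ratio (2.83), stood at 0.486. Over the 10 arrays the log2 ratio of the probe sets went with the actin ratio with Pearson's r = -0.828 (permutation p = 0.00526, adjusted 0.0105 over the 2 genes examined) and a Spearman correlation of -0.842 (permutation p = 0.00361, adjusted 0.00722). Leaving out SPI 4 and GEN 5, which lay farthest from the median actin ratio, r was -0.492, so the relation rested in part on them. Within diets r was -0.831. For the 2 probe sets of Gclc the same relation had r = -0.666 (permutation p = 0.0351, adjusted 0.0351) and a Spearman correlation of -0.467 (permutation p = 0.178, adjusted 0.178), and r was -0.232 without the same arrays. The part of RNA integrity in the Txnrd1 difference between diets was not tested.

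**Figure D2:**
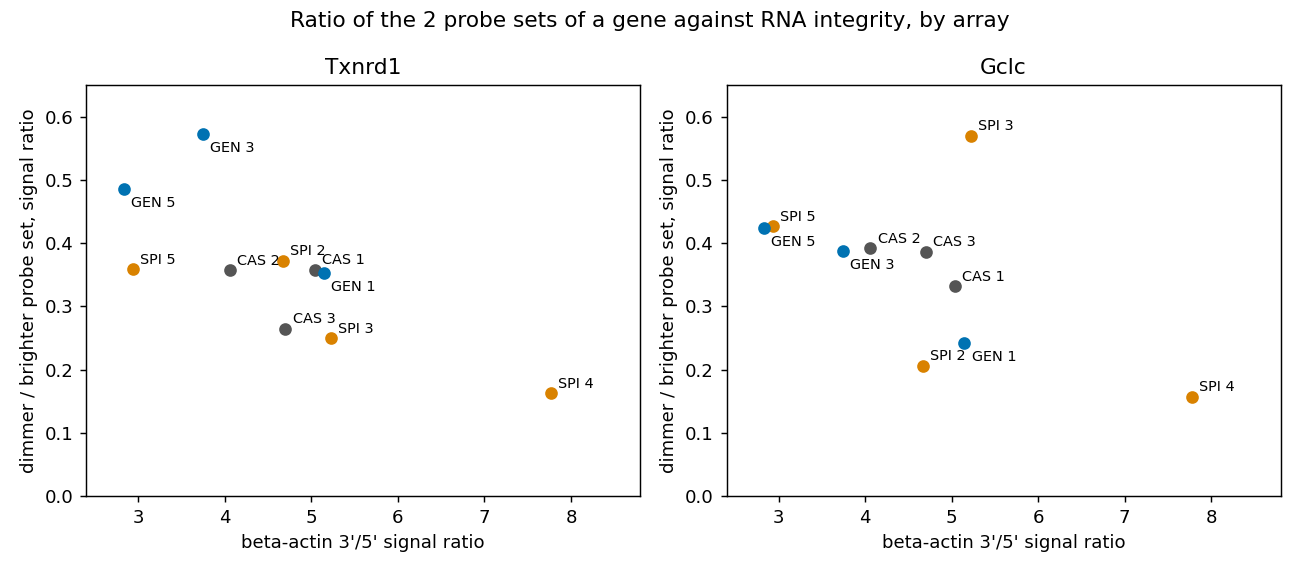
Ratio of the dimmer to the brighter probe set signal (vertical axis) against the beta-actin 3'/5' signal ratio (horizontal axis) for Txnrd1 and Gclc, 1 point per array, coloured by diet. SPI 4 lies at the right with the lowest ratio in both panels, 0.163 for Txnrd1 and 0.157 for Gclc.

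The superoxide dismutases had high signals on all arrays. Sod1, the copper and zinc enzyme of the cytosol, had 4331.9, 3928.0 and 4837.6 on CAS 1, 2 and 3, 4465.6, 5504.3, 5565.2 and 4180.6 on SPI 2 to 5, and 4407.8, 5641.1 and 5195.3 on GEN 1, 3 and 5. The whole range was 1.44-fold and the diets overlapped. The differences were 0.17 ± 0.14 (SE), 0.22 ± 0.15 and -0.05 ± 0.14, for SPI against CAS, GEN against CAS and SPI against GEN, and the last turned to 0.01 when arrays were centred on their median. Sod2, the manganese enzyme of mitochondria, which is also induced by inflammatory cytokines, ranged over 2.58-fold. Its signals were 3534.8, 2376.3 and 1411.7 on CAS 1, 2 and 3, 2188.5, 2794.5, 2393.3 and 3393.5 on SPI 2 to 5, and 1908.1, 3643.9 and 2285.8 on GEN 1, 3 and 5. High and low arrays stood in every diet, CAS 1 and CAS 3 being near the ends of the range. The differences were 0.22 ± 0.29, 0.14 ± 0.31 and 0.08 ± 0.29. Without CAS 3 the first was -0.13 and the second -0.21.

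Cat codes for catalase, the peroxisomal enzyme that splits hydrogen peroxide and is plentiful in fat. It had the smallest spread within diets of the 12 probe sets, an SD of 0.12 in log2 units. Its signals were 1640.1, 1629.8 and 1555.5 on CAS 1, 2 and 3, 1324.5, 1510.2, 1171.1 and 1368.8 on SPI 2 to 5, and 1622.8, 1429.1 and 1603.0 on GEN 1, 3 and 5. All 4 SPI arrays lay below all 3 CAS arrays, and SPI 4 was the lowest of all. SPI stood -0.27 ± 0.13 (SE) from CAS, 0.832-fold, with a 95% interval from -0.54 to 0.0086 and a limma adjusted p = 0.987 (alternatives 0.764 to 0.9999). SPI stood -0.21 ± 0.13 from GEN, and GEN -0.05 ± 0.14 from CAS. The difference of SPI from CAS was -0.20 without SPI 4. The mean log2 signal of 11 adipocyte markers, with Lep and Plin1 of the list below the filter, was 10.10 on CAS (SD 0.06, n = 3), 10.09 on SPI (SD 0.09, n = 4) and 10.15 on GEN (SD 0.07, n = 3). On SPI against CAS 6 of the 11 were higher and 5 lower. Cat had Pearson's r = 0.388 with this mean (permutation p = 0.269, adjusted 0.916). Its largest r was with the luminal mean, at 0.614 (permutation p = 0.0595, adjusted 0.636), and 0.00091 without GEN 5 and SPI 4. With the basal mean r was 0.507 (permutation p = 0.132, adjusted 0.755), and 0.920 within diets. The part of cell types in the Cat difference was not tested.

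Gpx1, the selenium-dependent glutathione peroxidase of the cytosol, had 5264.5, 4703.9 and 7227.7 on CAS 1, 2 and 3. It had 4410.3, 6294.2, 5709.7 and 6070.2 on SPI 2 to 5, and 4212.7, 6212.3 and 5701.0 on GEN 1, 3 and 5. CAS 3, low for Nfe2l2, Gclc, Gclm, Txnrd1 and Sod2, was the highest array for Gpx1. The differences were -0.02 ± 0.18 (SE), -0.09 ± 0.19 and 0.07 ± 0.18, for SPI against CAS, GEN against CAS and SPI against GEN. The first turned to 0.05 when arrays were centred on their median. Its 95% interval, -0.41 to 0.38 log2 units, leaves room for changes either way, so equality was not shown.

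Gpx3, the secreted glutathione peroxidase of plasma, had 3014.5, 1701.2 and 1813.2 on CAS 1, 2 and 3. It had 1487.0, 1173.8, 1429.4 and 2224.9 on SPI 2 to 5, and 1245.9, 1907.8 and 1746.5 on GEN 1, 3 and 5. CAS 1 stood above all other arrays, SPI 5 came next, and the diets overlapped. SPI stood -0.45 ± 0.24 (SE) from CAS (limma adjusted p = 0.987, 0.633 to 0.9999 over the alternatives), GEN -0.39 ± 0.26 from CAS, and SPI -0.07 ± 0.24 from GEN. Without CAS 1 the first was -0.19 and the second -0.13.

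Gpx3 followed the fibroblast markers across arrays. The mean log2 signal of the 11 fibroblast markers, collagens, decorin and others, ran from 11.49 (CAS 2) to 12.38 (CAS 1) on CAS, from 10.73 (SPI 3) to 11.80 (SPI 5) on SPI and from 11.26 to 11.62 on GEN. Summed, their signal ran from 60562 to 114905 on CAS, 43193 to 86133 on SPI and 58178 to 75433 on GEN, and all 11 genes were above the filter. They were lower in 11 of 11 on SPI than on CAS and in 11 of 11 on GEN than on CAS, with 3 and 2 at an unadjusted p under 0.05 and 0 after adjustment. Of all 9520 tested probe sets, 313 and 304 were lower at that unadjusted p in limma. Gpx3 went with the fibroblast mean with Pearson's r = 0.943 (n = 10, permutation p = 2.0e-05, adjusted 0.0024 over 120 relations of 12 probe sets with 9 marker lists and the actin ratio). The Spearman correlation was 0.915 (permutation p = 0.00054, adjusted 0.0648). Within diets r was 0.934, and without CAS 1 and SPI 3, the arrays farthest from the median of the markers, it was 0.851. With the macrophage mean r was 0.768 (permutation p = 0.00737, adjusted 0.221), the Spearman correlation 0.867 (permutation p = 0.00226, adjusted 0.136), and r was 0.849 without CAS 1 and CAS 3. With the skeletal muscle mean, also highest on CAS 1, r was 0.797 (permutation p = 0.00622, adjusted 0.221), the Spearman correlation 0.539 (permutation p = 0.114, adjusted 0.874), and r was 0.297 without CAS 1 and SPI 3. No other of the 120 relations passed the adjustment, by Pearson's or Spearman's measure, and the Gpx3 relation passed by Pearson's alone. The part of fibroblasts in the Gpx3 difference between diets was not tested.

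**Figure D3:**
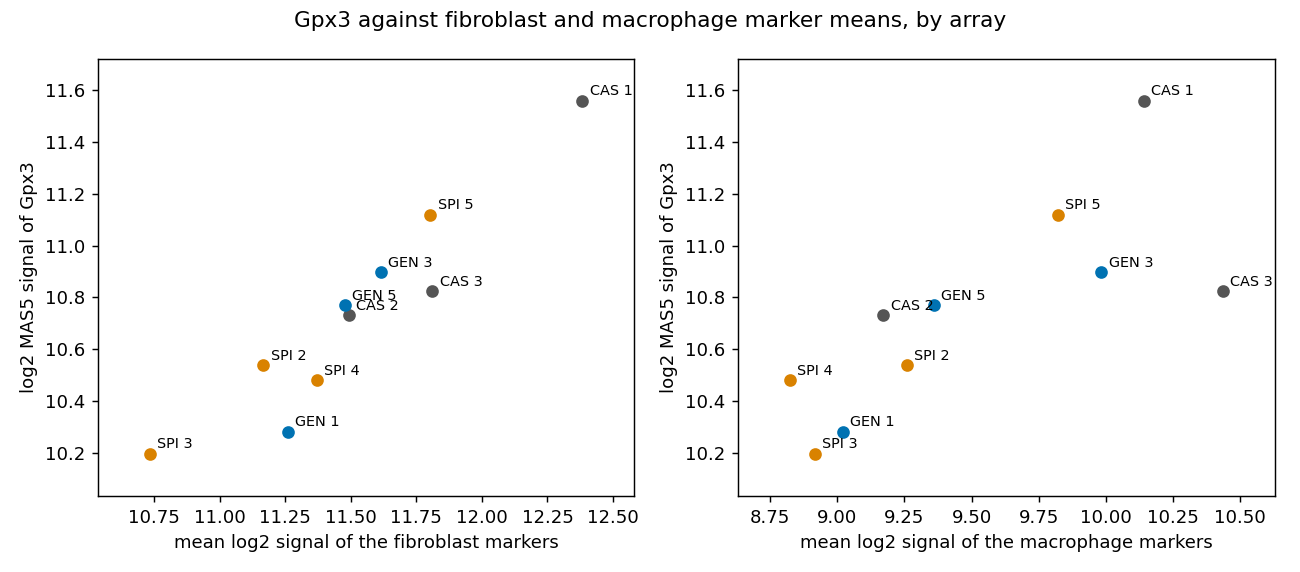
Log2 signal of Gpx3 (vertical axis) against the mean log2 signal of 11 fibroblast markers (left) and 13 macrophage markers (right), 1 point per array, coloured by diet. CAS 1 is highest for Gpx3 and for the fibroblast markers, and SPI 3 is lowest for both.

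**Figure D4:**
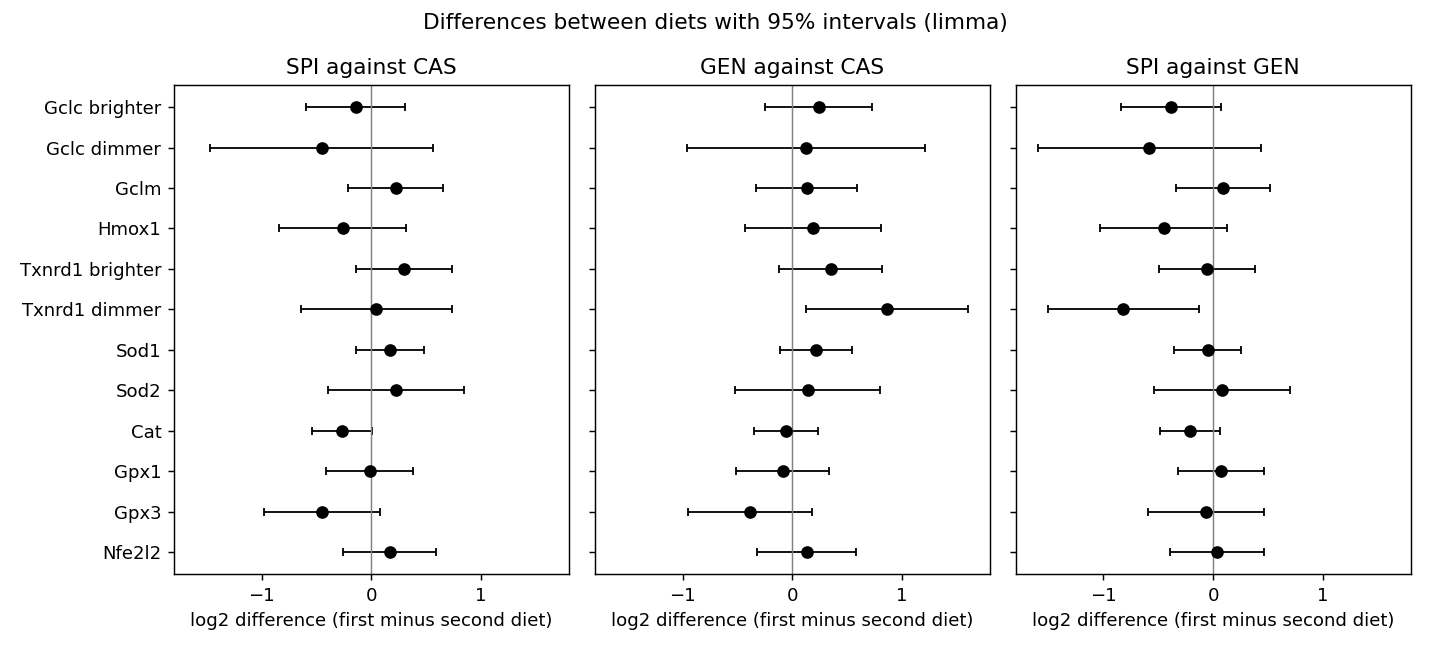
Log2 differences between diets (horizontal axis) of the 12 probe sets from limma, with 95% intervals, in the 3 comparisons; the dimmer Gclc probe set comes from the fit without the signal filter. The intervals of the dimmer Txnrd1 probe set leave out 0 where GEN is compared with either diet, and all other intervals include it.

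Across arrays no pair of the 10 genes showed a relation past adjustment. Of the 45 pairs of genes, each at its brighter probe set, 29 had a Pearson r above 0 over the 10 arrays and 0 passed adjustment over the 45 (smallest adjusted permutation p = 0.522, and 0.915 by Spearman's measure). The highest was Nfe2l2 with Txnrd1, at r = 0.795 (permutation p = 0.0165, adjusted 0.522), with a Spearman correlation of 0.248 (permutation p = 0.494, adjusted 0.915). Without CAS 3 and SPI 2 it was -0.273, so it rested on those arrays. Nfe2l2 with Sod2 had r = 0.703 (permutation p = 0.0232, adjusted 0.522), a Spearman correlation of 0.673 (permutation p = 0.0393, adjusted 0.915), and 0.314 without CAS 3 and GEN 3. CAS 3 was the lowest of the 10 arrays for 6 of the 12 probe sets (both of Txnrd1, the brighter of Gclc, and those of Gclm, Sod2 and Nfe2l2) and the highest for Gpx1. GEN 3 was the highest for 4 of 12. CAS 3 had an ordinary actin ratio of 4.70 and the highest summed macrophage signal, 29032.

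The genes most alike to each member in log2 signal over the 10 arrays were taken as the highest of about 8063 named probe sets, so their correlations are a description. Nfe2l2 was most like Tes (r = 0.968), a focal adhesion gene, Pafah1b1 (0.965), which codes for a dynein regulator, and the glucose transporter Slc2a3 (0.964). Sod2 was most like the chemokine Ccl2 (0.961), the small GTPase Rnd3 (0.932) and Gch1 (0.930), which opens tetrahydrobiopterin synthesis. Gpx3 was most like the peptidase Dpp4 (0.970), Medag (0.953) and Cercam (0.950). Hmox1 was most like the annexin partner S100a10 (0.941), Stmn4 (0.920) and Lrp11 (0.918), and Cat most like Sec24b (0.923), Rtn4ip1 (0.907) and Alcam (0.900). Gclc was most like Usp9x (0.897), the lipoprotein lipase gene Lpl (0.894), one of the adipocyte markers, and the olfactory receptor gene Or13p4 (0.891), and Gclm most like C2h1orf52 (0.887), Rev3l (0.840) and Patl1 (0.837). Txnrd1 was most like Baz1a (0.917), the small heat shock protein gene Cryab (0.915) and Rybp (0.912), Sod1 most like the ATP synthase subunit gene Atp5me (0.897), Clp1 (0.883) and Cdk2ap2 (0.863), and Gpx1 most like Dek (0.890), Sgf29 (0.875) and Phospho2 (0.875). None of these 30 genes is another of the 10 or a gene of the redox lists.

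Beyond the 10 genes, 8 lists of other redox genes held 134 symbols, of which 102 were on the array and 82 were tested, each at its brightest probe set. In limma 0 of the 82 were called in any comparison. At an unadjusted p under 0.05 there were 3 for SPI against CAS, all lower on SPI. There were 5 for GEN against CAS, all higher on GEN, and 8 for SPI against GEN, all lower on SPI. These are 3.66%, 6.10% and 9.76% of the 82, where 4.82%, 5.89% and 7.95% of all tested probe sets passed in either direction. By direction, 3.29% of all tested passed lower on SPI than on CAS, 2.7% higher on GEN than on CAS and 4.25% lower on SPI than on GEN. The last 2 comparisons share the GEN arrays. The diets did not overlap for 3 of the 82 genes between SPI and CAS, 9 between GEN and CAS and 8 between SPI and GEN. The shares of all tested probe sets were 4.6%, 11.1% and 8.5%, so separation of the diets in single genes below is not read as a trait of the lists. GEN stood above CAS in 57 of the 82 genes with a median of 0.09, where 47.9% of all tested probe sets stood above.

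**Figure D5:**
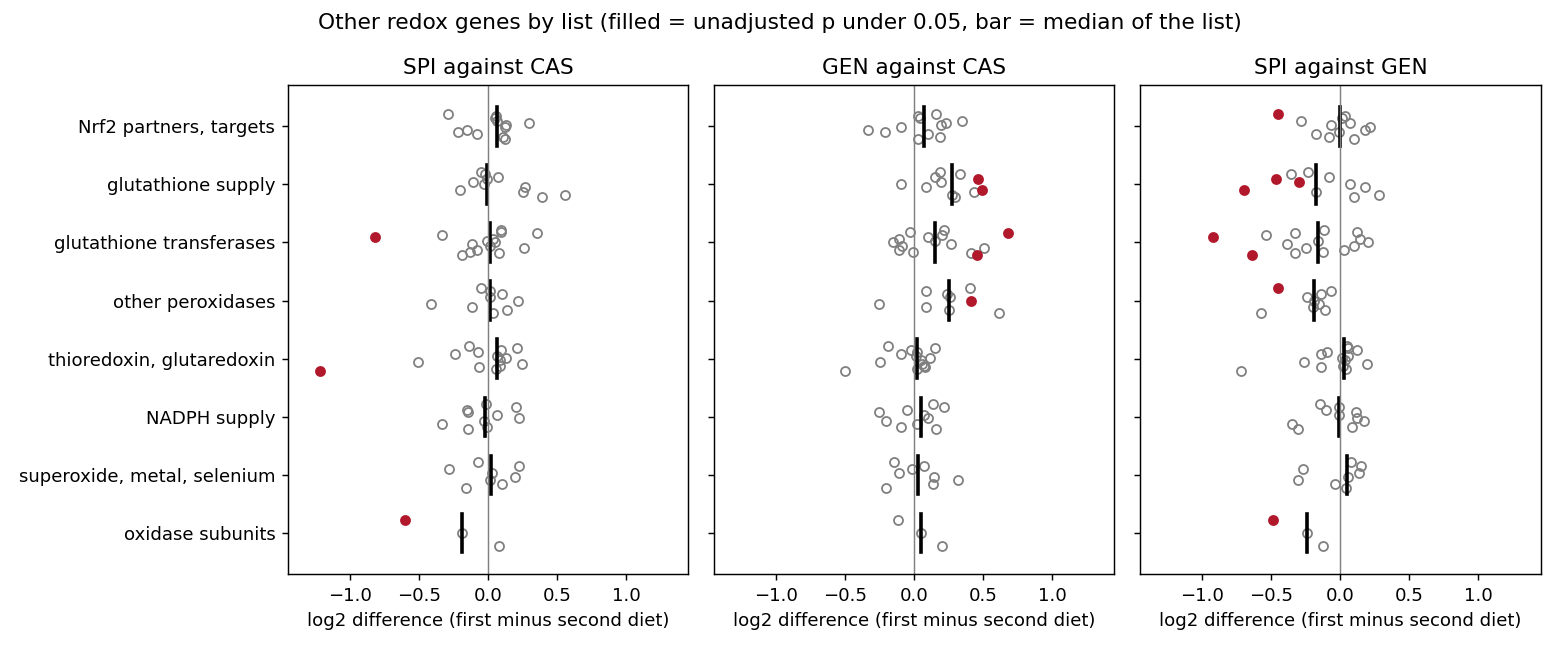
Log2 differences (horizontal axis) of the 82 tested genes of 8 redox lists in the 3 comparisons, 1 point per gene; filled points have an unadjusted limma p under 0.05 and bars are list medians. For GEN against CAS the filled points lie to the right of 0, and for SPI against GEN to the left.

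The list named glutathione supply also holds genes of glutathione breakdown and use, such as Ggt1 and Glo1, so its counts are not those of synthesis. Its genes were higher on GEN than on CAS in 10 of 11, with a median of 0.28, where 47.9% of all tested probe sets were higher. They were lower on SPI than on GEN in 7 of 11, with a median of -0.18. Against CAS the SPI median was -0.0076, which turned to 0.06 under quantile normalization and under centring on the array median. Gss, the second step of glutathione synthesis, had signals of 246.8 to 310.8 on CAS, 253.4 to 313 on SPI and 332.6 to 439.1 on GEN, so that GEN lay above both other diets. It stood 0.46 ± 0.18 (SE) above CAS on GEN, and SPI stood -0.47 ± 0.17 from GEN (limma adjusted p = 0.825 and 0.563). Ggt1, the cell-surface enzyme that opens glutathione breakdown and is bound to epithelial membranes, had 176.8 to 229.8 on CAS, 128.5 to 221.2 on SPI and 275.3 to 317.3 on GEN. It stood 0.49 ± 0.23 above CAS on GEN, and SPI stood -0.70 ± 0.21 from GEN (limma adjusted p = 0.825 and 0.508). The lowest SPI signal of Ggt1, 128.5, lay below the dimmest mean tested, 162. For SPI against CAS, Cbs, which makes cystathionine, stood at 0.39 and Ggt5 at 0.27.

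Glutathione transferases, which join glutathione to reactive compounds, had medians of 0.01, 0.15 and -0.16 over 15 genes, for SPI against CAS, GEN against CAS and SPI against GEN. Gstt3, a theta-class enzyme, had signals of 160.6 to 181.9 on SPI, 219.5 to 362.3 on CAS and 286.3 to 342.6 on GEN. The SPI arrays thus lay below all others, close to the dimmest signals tested (162), at -0.82 ± 0.20 (SE) from CAS and -0.92 ± 0.20 from GEN. Its unadjusted p, 0.00113 and 0.000453 in limma, was the smallest of the 82 genes in both comparisons, and its adjusted p was 0.582 and 0.40. Gsta1, an alpha-class enzyme, had 616.5 to 832.5 on CAS, 544.9 to 806.2 on SPI and 855.1 to 1172.1 on GEN, with GEN above both diets. It stood 0.45 ± 0.19 above CAS on GEN, and SPI stood -0.64 ± 0.17 from GEN. Mgst1, a membrane-bound transferase, had 1202.6 to 1603.7 on CAS, 1360.1 to 2530.3 on SPI and 1696.5 to 3363.6 on GEN, and stood 0.68 ± 0.26 above CAS on GEN and 0.35 ± 0.24 above it on SPI.

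The other peroxidases stood lower on SPI than on GEN in 9 of 9 genes (median -0.19) and higher on GEN than on CAS in 8 of 9 (median 0.25). Of all tested probe sets 49.2% stood higher on SPI than on GEN and 47.9% higher on GEN than on CAS. These signs of the peroxidases held under quantile normalization and under centring on the array median. For the lists no values without single arrays are given here. The list mean per array overlapped between diets, at 9.83 to 10.23 on CAS, 9.82 to 10.17 on SPI and 10.08 to 10.39 on GEN. Prdx2, a thioredoxin-dependent peroxidase abundant in red cells, had 2339.4 to 3262.1 on CAS and 3222.6 to 4090.7 on GEN, a difference of 0.41 ± 0.17 (SE). Prdx6, which uses glutathione, had 651.8 to 856.7 on SPI and 954.3 to 1102.9 on GEN, a difference of -0.45 ± 0.20. Gpx2, the glutathione peroxidase of epithelia, stood 0.62 ± 0.32 above CAS on GEN, with SPI at -0.58 ± 0.30 from GEN, and Gpx8, of the endoplasmic reticulum, at -0.41 for SPI against CAS. The Gpx2 signals were dim, from 146.4 on CAS and 108.9 on SPI, both below the dimmest mean tested, 162.

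Epithelial marker values for the same comparisons are given here. Luminal markers were higher on GEN than on CAS in 11 of 14 and lower on SPI than on GEN in 13 of 14. At an unadjusted p under 0.05 in limma, 8 of the 14 were lower on SPI than on GEN and 1 higher, and 0 passed adjustment. Of all tested probe sets 4.25% were lower at that p. The 6 tested milk genes were all higher on GEN than on CAS. All 6 were lower on SPI than on GEN (median -1.20), 5 of them at that p. SPI and GEN did not overlap for 8 of 14 luminal and 5 of 6 milk genes, where the share of all tested was 8.5%. On SPI against CAS 12 of 14 luminal markers were lower, with a median of -0.25. Of the basal markers 6 of 8 were higher, with a median of 0.24, and 4 of 6 milk genes were lower, with a median of -0.04. In that comparison the 82 redox genes stood higher in 44 and lower in 38, with a median of 0.02, where 47.7% of all tested probe sets stood higher. Basal markers were higher on GEN than on CAS in 7 of 8 and lower on SPI than on GEN in 5 of 8. The summed signal of the 15 luminal markers ran from 16477 to 26730 on CAS, 10606 to 22280 on SPI and 23067 to 31404 on GEN, and Krt7 alone was below the filter. The summed milk signal ran from 27346 to 71063 on CAS, 23792 to 59999 on SPI and 72048 to 94977 on GEN. The part of epithelium in the values of Gss, Ggt1, Gsta1, Prdx6 and the other redox genes was not tested.

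Of the partners and other targets of Nrf2, 12 were tested, with medians of 0.06, 0.07 and -0.00040, and the last took the other sign under quantile normalization and centring. Sqstm1, an autophagy adaptor that also binds Keap1, had 1817.4 to 2551.7 on SPI and 2518 to 3018.6 on GEN, a difference of -0.45 ± 0.15 (SE) with an adjusted p of 0.558 in limma, and stood at -0.29 for SPI against CAS. Nqo1, the quinone reductase used as a reporter of Nrf2, stood 0.35 ± 0.25 above CAS on GEN, with SPI at -0.28 ± 0.24 from GEN, neither past an unadjusted p of 0.05 in limma. Nfe2l1, a relative of Nrf2, stood at 0.30 for SPI against CAS and 0.23 for GEN against CAS.

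The thioredoxin and glutaredoxin list had medians of 0.06, 0.02 and 0.03 over 14 genes. Its member with the largest difference was Glrx, a glutaredoxin that removes glutathione from proteins, at -1.22 ± 0.37 (SE) for SPI against CAS (limma adjusted p = 0.832). Its signals were 781.1 to 2190.1 on CAS, 403.7 to 911 on SPI and 731 to 1651.4 on GEN, with overlap. Nxn, a nucleoredoxin, stood at 0.25 for SPI against CAS, and Txnrd3, a relative of Txnrd1, at -0.19 for GEN against CAS. Enzymes that make NADPH (10 genes) had medians of -0.02, 0.05 and -0.0073, and the first and last took the other sign under centring on the array median. The malic enzyme gene Me1 stood at -0.33 for SPI against CAS, Pgd of the pentose phosphate path at -0.26 for GEN against CAS, and Idh1 at -0.30 for SPI against GEN. Mthfd1, of folate metabolism, stood at 0.22 for SPI against CAS and Taldo1 at 0.21 for GEN against CAS. The list of metallothioneins, selenoproteins and dismutase accessory genes (8 genes) had medians of 0.02, 0.03 and 0.05, the second of which took the other sign under quantile normalization, and Selenop, the selenium carrier, stood at -0.29 ± 0.14 for SPI against CAS. Selenow stood at 0.22 for SPI against CAS, the Sod1 copper chaperone Ccs at -0.20 for GEN against CAS, and the methionine sulfoxide reductase Msrb2 at 0.32 for GEN against CAS. Among oxidase subunits 3 genes were tested. Xdh, xanthine dehydrogenase, which can make superoxide and is also a protein of milk fat globules, had 2413.9 to 3472.7 on CAS, 1463.8 to 2442.2 on SPI and 2354 to 3364.5 on GEN. It stood at -0.60 ± 0.19 for SPI against CAS and -0.49 ± 0.19 for SPI against GEN (limma adjusted p = 0.863 and 0.582). The phagocyte oxidase subunits stood at -0.19 (Cybb, SPI against CAS) and 0.20 (Cyba, GEN against CAS).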

How the data were processed

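The authors deposited 1 table of linear MAS5 intensity values, 1 per probe set and array; MAS5 is named in the submitters' processing notes, and no version of it is in the sources used here. Trimmed means agreed between arrays at about 500, so total RNA cannot be compared. The table has no presence calls. Of 15923 probe sets, 57 controls were left out, values under 1 were set to 1, log2 was taken, and the lowest 40% by mean were removed. Symbols came from the platform annotation (12783 of 15866 probe sets with 1 symbol) through Entrez identifiers. Diets were compared with limma 3.58.1 in R 4.3.3 (lmFit, eBayes with trend) over all 10 arrays, with Benjamini-Hochberg adjustment over 9520 probe sets per comparison; errors are standard errors of the fit. The number of arrays limits the precision. Correlations used 100000 permutations, two-sided. The model was tested on simulated data. No 2 arrays held the same values.

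The 10 genes and the lists were chosen with earlier results of these data known. Named were all members, the 3 genes most alike to each by Pearson's r, and, from each redox list, genes drawn from the 2 with the smallest p per comparison at the brightest probe set. Same-numbered arrays of different diets had deviations that correlated at -0.18 to 0.16, so numbers were not used as pairs. Alternatives were other filters, log2(value + 32), quantile normalization, median centring, no trend, 2 diets per fit, the replicate number as a block, and leaving out each array. RefSeq start-site windows are of build GRCr8.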

Additional observations from a re-analysis of the deposited data

How the results depend on the processing

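No member passed an adjusted p of 0.05 under any of the 18 alternatives run, where the smallest adjusted p in limma was 0.335 (the dimmer Txnrd1 for SPI against GEN). Of the 36 member differences, 16 kept their sign in all 18 alternatives and 20 did not, none of the latter over 0.26 in size; for these signs the cause was not tested. With arrays centred on their median Gpx1 stood at 0.055 for SPI against CAS, and the brighter Txnrd1 at 0.0069 and Sod1 at 0.013 for SPI against GEN. That centring also turned the split at an unadjusted p under 0.05 over all probe sets from 146 higher and 313 lower to 300 and 174 for SPI against CAS, and from 352 and 405 to 612 and 272 for SPI against GEN. With the replicate number as a block, which the labels do not support as a pairing, Gclm stood at -0.13, the brighter Txnrd1 at 0.024 and Gpx3 at 0.076 for SPI against GEN, and 0 probe sets were called in each comparison, with 270, 416 and 286 at an unadjusted p under 0.05 in limma for SPI against CAS, GEN against CAS and SPI against GEN.

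Leaving out CAS 3 turned 10 of the 36 signs. For SPI against CAS, values without 1 array ran from -0.38 to 0.022 for the brighter Gclc, -0.48 to 0.00074 for Hmox1, -0.34 to 0.28 for the dimmer Txnrd1, -0.13 to 0.54 for Sod2, -0.15 to 0.16 for Gpx1 and -0.11 to 0.33 for Nfe2l2. For GEN against CAS they ran from -0.12 to 0.41 for the dimmer Gclc, -0.0017 to 0.31 for Gclm, -0.028 to 0.45 for Hmox1, -0.21 to 0.46 for Sod2, -0.087 to 0.0043 for Cat, -0.22 to 0.092 for Gpx1 and -0.14 to 0.30 for Nfe2l2. For SPI against GEN they ran from -0.013 to 0.20 for Gclm, -0.13 to 0.096 for the brighter Txnrd1, -0.15 to 0.031 for Sod1, -0.12 to 0.35 for Sod2, -0.096 to 0.18 for Gpx1, -0.25 to 0.063 for Gpx3 and -0.066 to 0.13 for Nfe2l2. Over all probe sets, leaving out 1 array gave 0 to 2 calls for SPI against CAS (RT1-CE16 and RT1-Bb without SPI 2), 0 to 1 for GEN against CAS (Apod without CAS 1), 0 to 1 for SPI against GEN (Il17b, RT1-CE16, Rpl37a or an unnamed probe set) and 0 to 2 for any diet. Fitting SPI and GEN alone gave 2 calls (Il17b and the unnamed probe set). The 5 named genes are in none of the redox lists and were named after their values were seen.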
